A study of Saccharomyces cerevisiae S288C with 71 samples.

Results

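The proteasome subunit genes of budding yeast were followed in 12 strains at 3 times, as transcript levels in 71 RNA-seq libraries. Members were chosen by name: a gene symbol made of PRE, PUP, RPN or RPT and a number, or SCL1. The rule gave 33 of the 5803 genes in the table. Of these, 14 encode the 20S core particle (7 of the outer alpha rings, 7 of the inner beta rings), and 18 encode the 19S regulatory particle (6 ATPases and 4 other subunits of its base, 8 of its lid). The remaining gene, RPN14, encodes a chaperone that helps to assemble the base. RPN4 also has such a symbol, but it encodes the transcription factor of these genes and is given apart. SEM1, a small lid subunit, is not matched by name and is also given apart.

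The strains were deletions in the S288C background, in which d marks the deleted gene. Respiratory mutants were coq2d, which cannot make coenzyme Q, and cox4d, deleted for a cytochrome c oxidase subunit. Single deletions described as suppressors of the starvation death of those mutants were ras2d (a small GTPase that activates adenylate cyclase), rts1d (a regulatory subunit of protein phosphatase 2A) and tco89d (a subunit of the TORC1 kinase complex). The 6 double mutants were coq2d ras2d, coq2d rts1d (spelled rts1dd in the sample names), coq2d tco89d, cox4d ras2d, cox4d rts1d and cox4d tco89d, and wt was the common wild type. Cultures at 30 C had 2% glucose as their carbon source and ammonium as nitrogen source in yeast nitrogen base. They were sampled in log phase (0 h) and at 12 and 16 h, a span in which wild-type cells pass through the diauxic shift, the switch from fermentation to respiration. Each group of strain and time had 2 libraries, except cox4d rts1d at 16 h with 1. The labels call them technical replicates, so every p-value measures the spread between such libraries and not between cultures.

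The proteasome degrades proteins tagged with ubiquitin. Its 20S core is a barrel of 4 stacked rings whose inner beta rings carry the proteolytic sites, while the 19S particle binds the ubiquitin chain, removes it, and unfolds and feeds in the substrate with a ring of AAA ATPases. In budding yeast most of these genes carry a short promoter element, the proteasome-associated control element (PACE), which the zinc finger protein Rpn4 binds. Rpn4 is itself a very short-lived substrate of the proteasome, so that the pair form a feedback loop. When glucose runs out and cells stop dividing, proteasomes of yeast leave the nucleus and gather in cytoplasmic storage granules.

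The promoters of the members were read first, from 250 bases before to 50 bases after the annotated start of each coding sequence in the R64 genome (the sacCer3 build). PACE, spelled GGTGGCAAA or TTTGCCACC on the opposite strand, was searched exactly on both strands. It was present in 27 of the 33 members (81.8%), and in 72 of all 6020 promoters of the same length (1.2%), the members included. It stood in 6 of 7 alpha ring genes, 6 of 7 beta ring genes, all 6 ATPase genes, 2 of 4 other base genes and 7 of 8 lid genes. The first base of the match lay 84 (RPT6) to 183 (PUP3) bases before the coding start, with a median of 120, and 19 of the 27 matches read along the strand of the gene. With up to 1 mismatch, a search added after seeing these matches, 32 of 33 members and 454 of 6020 promoters (7.54%) had it. RPN14 had no match of either kind, and nor did RPN4.

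The windows below are shown because their genes are compared later. Each is given 5′ to 3′ along the gene's own strand, with 20 bases on either side of the match, and capitals mark the match. SCL1 and PRE6 carry the same 9 bases on the same strand at almost the same distance, and PRE6 alone among the members holds a second match, GGTAGCAAA with 1 mismatch, 69 bases before the start.
SCL1, alpha ring, match 108 bases before the start, chrVII:475327-475375 (- strand): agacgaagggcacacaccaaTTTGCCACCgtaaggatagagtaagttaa
PRE6, alpha ring, match 109 bases before the start, chrXV:255208-255256 (+ strand): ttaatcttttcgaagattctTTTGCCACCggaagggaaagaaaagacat
PUP1, PRE5 and RPN8 share the variant AGTGGCAAA.
PUP1, beta ring, match at 158 bases, chrXV:631881-631929 (- strand): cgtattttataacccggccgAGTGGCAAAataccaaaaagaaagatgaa
PRE5, alpha ring, match at 147 bases, chrXIII:901542-901590 (+ strand): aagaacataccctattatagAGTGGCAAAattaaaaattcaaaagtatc
RPN8, lid, match at 172 bases, chrXV:817075-817123 (- strand): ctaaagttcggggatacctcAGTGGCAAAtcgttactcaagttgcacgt
RPN13 and RPN10, which encode ubiquitin receptors of the 19S base, share the variant GGTGGCGAA, read on opposite strands (TTCGCCACC in RPN10), and SEM1 has the same one.
RPN13, base, match at 114 bases, chrXII:965646-965694 (- strand): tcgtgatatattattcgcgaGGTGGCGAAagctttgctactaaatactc
RPN10, base, match at 101 bases, chrVIII:498958-499006 (+ strand): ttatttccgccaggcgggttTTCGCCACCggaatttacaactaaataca
SEM1, lid subunit outside the rule, match at 111 bases, chrIV:1201997-1202045 (+ strand): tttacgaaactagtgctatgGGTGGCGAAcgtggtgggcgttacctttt
PUP3 and RPT6 hold the exact matches farthest from and nearest to the start.
PUP3, beta ring, match at 183 bases, chrV:349501-349549 (- strand): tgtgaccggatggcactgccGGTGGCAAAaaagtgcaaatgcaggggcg
RPT6, ATPase, match at 84 bases, chrVII:411342-411390 (- strand): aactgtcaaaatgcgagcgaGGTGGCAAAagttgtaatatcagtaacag
Outside the members the exact element was found in 45 promoters. Of the lists of related genes described later, these held the polyubiquitin gene UBI4, the ubiquitin-activating enzyme gene UBA1, the segregase gene CDC48, the proteasome-associated gene ECM29 and YAP1, a transcription factor gene. The first 3 are shown.
UBI4, polyubiquitin, match at 160 bases, chrXII:65339-65387 (- strand): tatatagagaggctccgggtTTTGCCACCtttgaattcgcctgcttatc
UBA1, ubiquitin-activating enzyme, match at 129 bases, chrXI:39014-39062 (+ strand): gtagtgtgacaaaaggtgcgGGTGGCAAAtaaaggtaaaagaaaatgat
CDC48, segregase, match at 141 bases, chrIV:238777-238825 (- strand): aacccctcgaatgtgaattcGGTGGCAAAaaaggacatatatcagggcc

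The whole 300-base promoters of SCL1 and PRE6 are shown because these genes are set side by side later. Capitals mark each match with up to 1 mismatch, 1 in SCL1 and 2 in PRE6.
SCL1, alpha subunit 1, chrVII:475198-475497 (- strand): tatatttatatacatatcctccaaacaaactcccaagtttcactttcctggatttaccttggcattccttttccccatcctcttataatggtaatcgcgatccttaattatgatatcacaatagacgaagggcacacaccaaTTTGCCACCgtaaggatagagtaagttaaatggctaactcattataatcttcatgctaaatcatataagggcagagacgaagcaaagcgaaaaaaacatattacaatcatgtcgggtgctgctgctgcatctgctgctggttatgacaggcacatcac
PRE6, alpha subunit 4, chrXV:255087-255386 (+ strand): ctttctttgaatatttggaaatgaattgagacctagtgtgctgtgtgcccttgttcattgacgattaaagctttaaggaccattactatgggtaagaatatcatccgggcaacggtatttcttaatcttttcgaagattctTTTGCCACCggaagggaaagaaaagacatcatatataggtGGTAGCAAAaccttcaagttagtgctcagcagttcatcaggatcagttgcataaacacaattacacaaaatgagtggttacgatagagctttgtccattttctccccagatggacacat

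**Figure D1:**
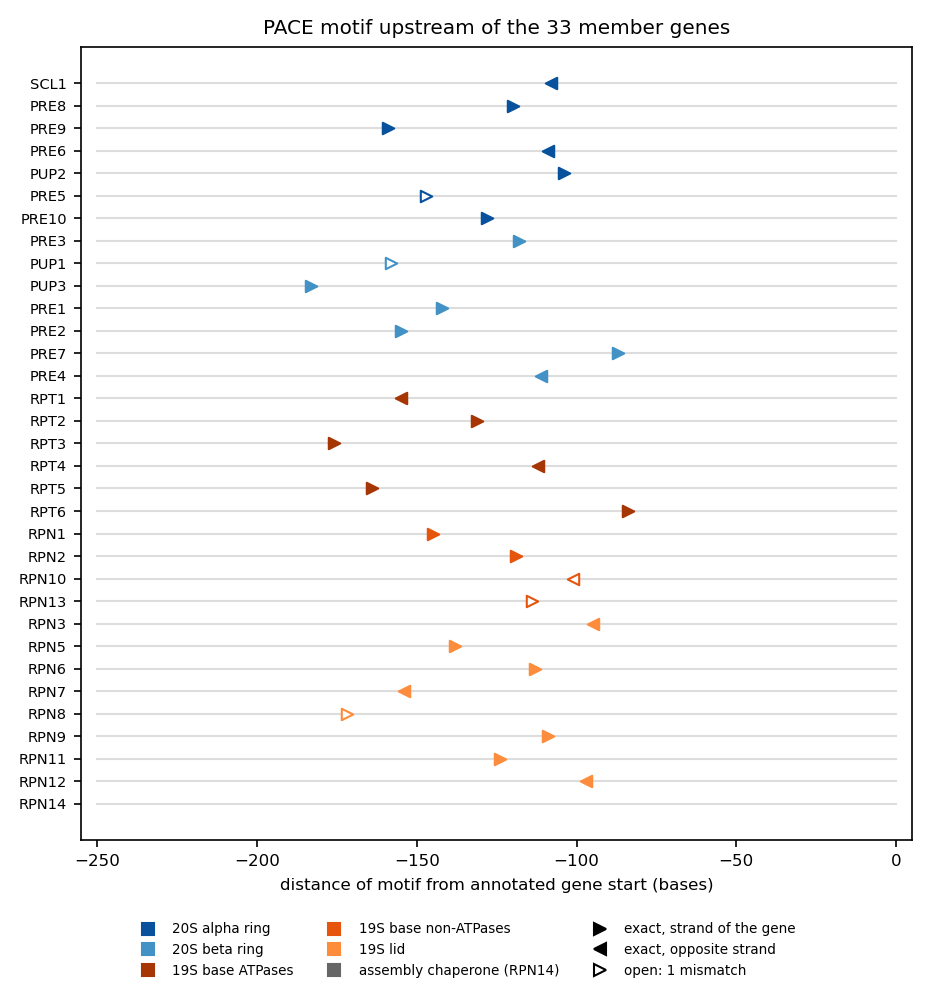
Position of the best PACE match before the annotated coding start (x axis, bases) in each of the 33 members (y axis), with filled triangles for exact and open triangles for 1-mismatch matches, pointing right where the match reads along the gene. All 27 exact matches lie between 84 and 183 bases before the start, and RPN14 has none.

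In log-phase wild type the core genes were expressed above most regulatory particle genes. Levels are in TPM (a transcript's length-corrected share of a library), so they can be compared between genes. Mean levels of the 7 alpha ring genes ran from 225 (PRE8) to 300.4 TPM (PRE6), and those of the 7 beta ring genes from 218 (PRE7) to 337 TPM (PUP3). All 14 lay above every 19S gene among the members. ATPase genes ran from 124 (RPT5) to 203 TPM (RPT1), and the lid genes from 65.6 (RPN9) to 171 TPM (RPN6). The scaffold gene RPN1 stood at 66.1 TPM and the ubiquitin receptor gene RPN10 at 202 TPM, the ends of the range in the rest of the base. RPN14 was lowest, with 26.15 and 24.99 TPM in its 2 libraries, and RPN4 had 51.6 and 42.4 TPM. SEM1 was above all members, with 398 and 409 TPM. Many neighbours in this order differ by less than the gap between libraries, since members' libraries of a group differed by up to 0.518 on the log2 scale and by 0.083 in the median group.

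**Figure D2:**
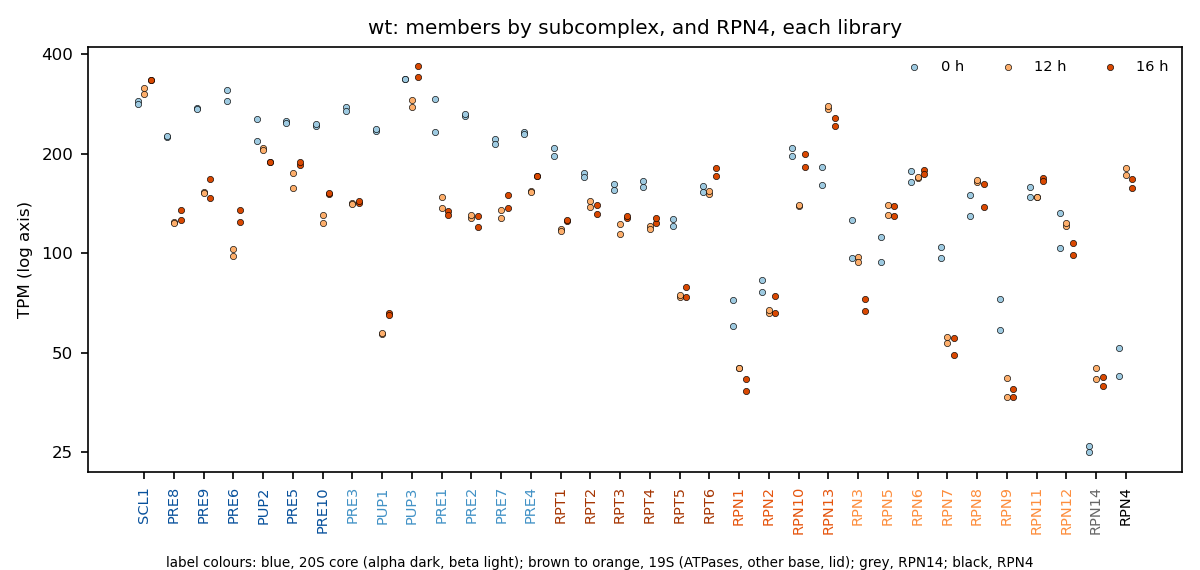
TPM (log axis) of each member and of RPN4 in each wt library at 0, 12 and 16 h, 2 points per time, ordered by position in the complex. PUP1 and PRE6 drop furthest below their log-phase points, RPN14 and RPN4 move up, and most lid genes stay close together.

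Between log phase and the later times in wild type, RPN4 rose while 3 of the 33 members changed by 2-fold. RPN4 had 51.6 and 42.4 TPM at 0 h, 182 and 173 TPM at 12 h and 168 and 157 TPM at 16 h, and the later libraries did not overlap with those of log phase. Its log2 change was 1.90 at 12 h (adjusted p = 1.3e-20) and 1.77 at 16 h (adjusted p = 1.3e-19). All p-values for genes here are from 1 limma fit over all libraries on log2(TPM + 1), adjusted by the Benjamini-Hochberg method over the 5766 genes tested, and the words rose and fell stand for a change of 2-fold or more whose adjusted p is below 0.05. Among the 33 members, 0 rose and 3 fell at 12 h, where 45.4% of all genes tested passed in either direction, and 0 rose and 3 fell at 16 h (46.5%). At an unadjusted p under 0.05 limma had 4 members higher and 23 lower at 12 h, and 5 higher and 21 lower at 16 h. No fold limit applies to such unadjusted counts here or below, and the share of all genes at that p was not counted.

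The 3 were PUP1, PRE6 and PRE2 at both times. PUP1, the beta subunit with the trypsin-like site, had 235 and 238 TPM at 0 h, 56.9 and 57.4 TPM at 12 h, and 66.0 and 64.9 TPM at 16 h. Its later libraries lay far below those of log phase, with a change of -2.03 ± 0.101 (SE) at 12 h (adjusted p = 6.6e-22) and of -1.84 at 16 h (adjusted p = 2e-20). PRE6, alpha subunit 4, had 288 and 313 TPM at 0 h, 98.03 and 103 TPM at 12 h and 125 and 135 TPM at 16 h, again without overlap. PRE6 fell by 1.57 at 12 h (adjusted p = 1.6e-18) and by 1.20 at 16 h (adjusted p = 8.5e-15). PRE2, the beta subunit with the chymotrypsin-like site, had 261 and 264 TPM at 0 h, 128 and 131 TPM at 12 h, and 120 and 130 TPM at 16 h. Its change of -1.02 and -1.07 was close to the 2-fold limit.

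At the other end were RPN6, SCL1 and RPN13. RPN6, a lid subunit that holds core and cap together, changed least, with 178 and 165 TPM at 0 h, 168 and 170 TPM at 12 h and 179 and 174 TPM at 16 h. SCL1, whose exact promoter element has the same bases as that of PRE6, had 289 and 283 TPM at 0 h, 303 and 316 TPM at 12 h and 334 and 335 TPM at 16 h. RPN13 had 183 and 161 TPM at 0 h, 273 and 279 TPM at 12 h and 257 and 242 TPM at 16 h, a change of 0.69 at 12 h and 0.54 at 16 h that stayed under 2-fold. RPN14 had 26.15 and 24.99 TPM at 0 h, 41.6 and 45.0 TPM at 12 h and 39.6 and 42.1 TPM at 16 h, the highest log2 change of a member at 12 h (0.74). Between 12 and 16 h no member passed in wild type, where 0.382% of all genes did; at an unadjusted p under 0.05 limma had 6 higher and 2 lower.

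Core and cap genes parted in wild type. The median log2 change of the 14 core genes was -0.84 at 12 h and -0.73 at 16 h, against -0.27 and -0.24 for the 18 cap genes and -0.24 and -0.24 for all genes tested. With median-ratio scaling, which sets the typical gene of each library equal, the medians at 12 h were -0.58 for the core and -0.01 for the cap, and at 16 h -0.44 and 0.05, so the cap's direction at 16 h turned. That scaling left 2 members past the threshold at 12 h and 1 at 16 h. TPM is a share of a library, and CUP1-1, a metallothionein gene, took 0.142 to 0.433% of a library over all strains at 0 h, 0.458 to 16.6% at 12 h and 1.75 to 20.8% at 16 h. Its part in the fall of other genes on the deposited scale was not tested.

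RPN4 rose in all 12 strains at both times, and the count stayed at 12 with median-ratio scaling. Its level over all strains was 38.7 to 62.1 TPM (median 47.5, 24 libraries) at 0 h, 110 to 225 TPM (median 166, 24 libraries) at 12 h, and 121 to 239 TPM (median 171, 23 libraries) at 16 h, and no later library reached down to the log-phase range. The rise at 12 h was 2.49-fold in coq2d ras2d, the least, and 4.42-fold in cox4d, the most. At 16 h the least was 2.53-fold in ras2d and the most 5.38-fold in coq2d rts1d. The largest adjusted p among these was 7.5e-15 at 12 h and 3.5e-15 at 16 h. Between 12 and 16 h RPN4 changed by less than 2-fold in every strain. In rts1d RPN4 had 239 and 230 TPM at 16 h, against 131 and 110 TPM at 12 h, a change of 0.96 (adjusted p = 9.3e-11). In coq2d RPN4 had 151 and 127 TPM at 16 h, against 200.3 and 174 TPM at 12 h, a change of -0.43.

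**Figure D3:**
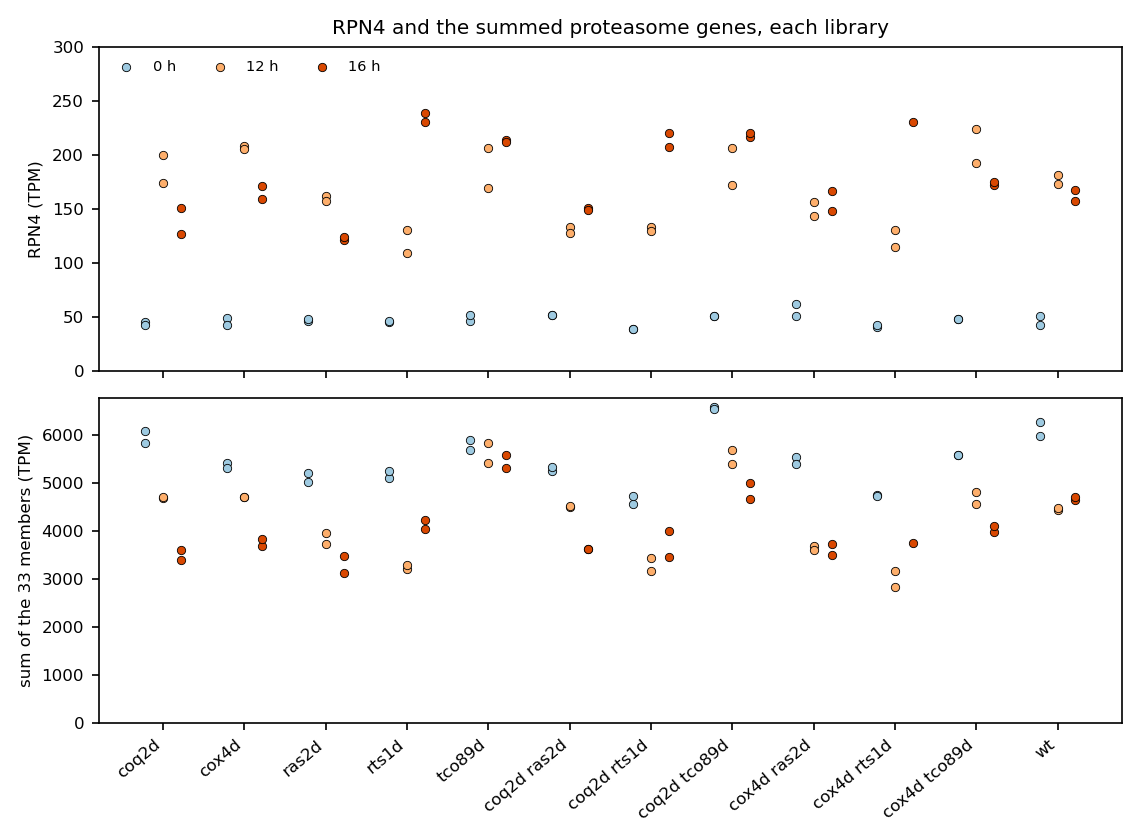
RPN4 (upper panel, TPM) and the sum of the 33 members (lower panel, TPM) in each library, by strain, with 0, 12 and 16 h from left to right within a strain. RPN4 is higher at 12 and 16 h than at 0 h in each of the 12 strains, whereas the summed members are level or lower.

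In no comparison with 0 h did more than 1 member rise, or more than 5 with median-ratio scaling (5 in cox4d tco89d at 16 h). The summed level of the members was 4549 to 6570 TPM at 0 h, 2831 to 5816 TPM at 12 h and 3126 to 5577 TPM at 16 h. Over the 12 comparisons of 12 with 0 h, 2 calls out of 396 pairs of member and strain were higher and 21 lower, where 39% of all tests over genes and strains passed (26.0 to 49.7% per strain). At 16 h against 0 h 2 were higher and 65 lower, where 44.9% of all such tests passed (29.7 to 57.9% per strain). Median-ratio scaling gave 6 rises and 5 falls at 12 h, and 9 rises and 16 falls at 16 h, so the balance of directions depended on the scaling. Of the 65 falls at 16 h, 47 were core genes and 18 cap genes. These comparisons share no library between strains, but those of 1 strain share its 0 h libraries.

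PUP1 and PRE6 made up the most frequent falls. PUP1 fell in 8 of 12 strains at 12 h and 11 at 16 h, with tco89d the exception at 16 h (log2 change -0.96). With median-ratio scaling 3 and 9 of these calls remained. PRE6 fell in 5 strains at 12 h and 10 at 16 h, of which 2 and 7 remained. PUP1 was lowest in cox4d ras2d at 16 h, where it had 38.9 and 50.1 TPM, against 198 and 189 TPM at 0 h. PRE6 was lowest in the same strain, with 46.7 and 44.3 TPM at 16 h, against 266 and 285 TPM at 0 h, a change of -2.57 (adjusted p = 8.7e-26). The strains in which PRE6 did not pass at 16 h were tco89d and coq2d tco89d. PRE2 fell in 2 strains at 12 h and in 6 at 16 h, and 0 of these calls remained with that scaling. In tco89d no member passed at 12 h (all genes, 36.2%) or 16 h (40.1%), where limma at an unadjusted p under 0.05 had 6 higher and 9 lower, and 5 higher and 12 lower.

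Other members passed in no strain on the deposited scale. In none of the 24 comparisons with 0 h did SCL1, PRE5, PUP3, RPT2, RPT3, RPT4, RPT6, RPN2, RPN3, RPN5, RPN6, RPN8, RPN11 or RPN13 pass, which are 14 of the 33 members, 3 of the core and 11 of the cap. That holds on the deposited scale: with median-ratio scaling RPN13 was higher in 5 of these comparisons (1.08 to 1.71), RPN5 in 2 (1.066 and 1.095), SCL1 in 1 (1.18) and RPN11 in 1 (1.02). RPT3, an ATPase, had the smallest spread, an SD of 0.238 on the log2 scale over the 36 group means, and PUP1 the largest of the members, 0.805. The median SD was 0.395 for the members and 0.584 for all genes tested, while RPN4 had 0.909. RPN8, whose element has the same variant as that of PUP1, had 150.4 and 129 TPM at 0 h, 165 and 167 TPM at 12 h and 162 and 138 TPM at 16 h in wt.

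**Figure D4:**
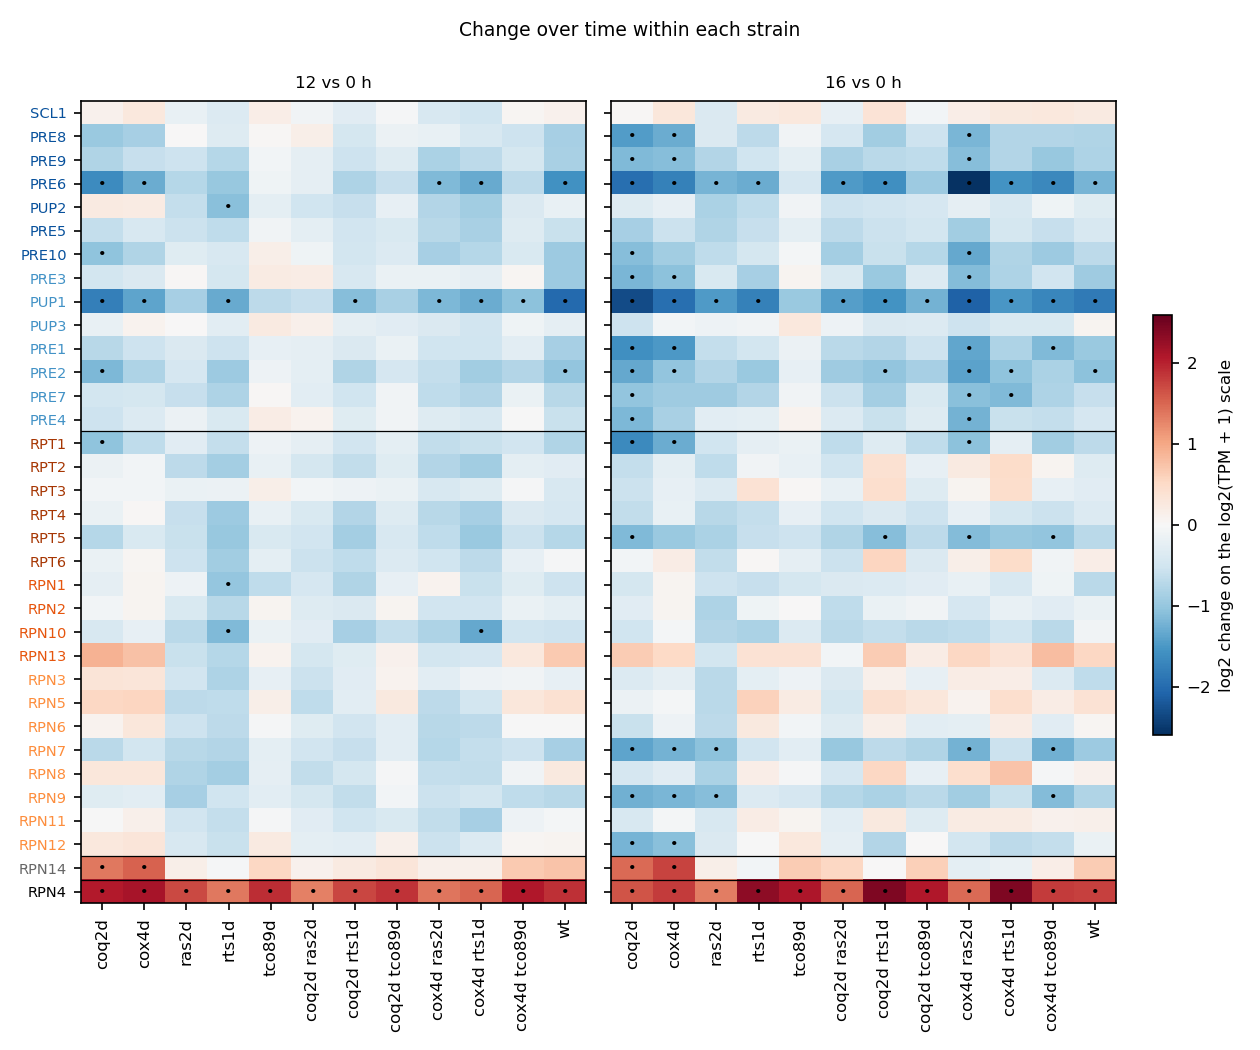
Log2 change (colour, on the log2(TPM + 1) scale) of each member and RPN4 at 12 and 16 h against 0 h in each strain, with dots where the change passed the threshold and lines between core, cap, RPN14 and RPN4. PUP1 and PRE6 are the most often blue, RPN4 is red in all 24 columns, and RPN14 is called in coq2d and cox4d only.

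The respiratory mutants and cox4d ras2d carried the longest lists of falls. In cox4d ras2d 13 members fell at 16 h against 0 h (all genes, 45.7% passed), or 2 with median-ratio scaling. In coq2d 5 members fell and 1 rose at 12 h against 0 h (all genes, 49.7% passed), and at 16 h 15 fell and 1 rose (53.6%). In cox4d 2 fell and 1 rose at 12 h (47.6%), and 11 fell and 1 rose at 16 h (53.6%). In each of these comparisons the share of the members that passed was below that of all genes. With median-ratio scaling 2 fell and 2 rose in either mutant at 16 h, and the median change of the members turned, being -0.63 on the deposited scale and 0.05 with median-ratio scaling in coq2d, and -0.30 and 0.26 in cox4d. The core's median kept its sign under both scalings, at -1.16 and -0.47 in coq2d and at -0.98 and -0.42 in cox4d.

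RPN14 was the member that rose in both mutants. It had 24.6 and 23.5 TPM at 0 h, 62.2 and 64.8 TPM at 12 h and 72.8 and 65.0 TPM at 16 h in coq2d. In cox4d RPN14 had 26.4 and 23.1 TPM at 0 h, 74.0 and 72.6 TPM at 12 h and 88.6 and 83.5 TPM at 16 h, the highest of any group. Its change at 16 h was 1.48 in coq2d (adjusted p = 3.3e-15) and 1.76 in cox4d (adjusted p = 1.1e-17), and these calls held with median-ratio scaling. RPN14 lay between 18.4 and 35.8 TPM at 12 and 16 h in the libraries of ras2d, rts1d and the 4 double mutants that lack RAS2 or RTS1.

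RPN12 fell late in the respiratory mutants. This lid subunit, the last to join the lid, had 115 and 93.0 TPM at 0 h, 123 and 129 TPM at 12 h and 45.9 and 42.2 TPM at 16 h in coq2d. In cox4d RPN12 had 110.0 and 96.5 TPM at 0 h, 133 and 123 TPM at 12 h and 46.2 and 49.3 TPM at 16 h. Between 12 and 16 h RPN12 was the one member past the threshold in coq2d (-1.499, adjusted p = 6.4e-14; all genes, 3.97%) and in cox4d (-1.41, adjusted p = 1.6e-13; all genes, 4.98%). Both calls held with median-ratio scaling. As a share of the members, 1 call was below the share of all genes in either mutant. Most members were lower over the same interval. At an unadjusted p under 0.05 limma had 27 members lower and 0 higher in coq2d, and 22 lower and 0 higher in cox4d.

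Each single mutant was then set against wild type at the same time. In log phase no member passed in any of the 5 strains, where 2.05% of all tests over genes and strains did (0.277 to 4.84% per strain). At an unadjusted p under 0.05 limma had 0 higher and 63 lower of 165 pairs of member and strain. All 5 comparisons at a time share the wt libraries. At 12 h no member passed in coq2d (all genes, 4.67%) or cox4d (3.26%); unadjusted, limma had 7 higher and 2 lower in coq2d and 10 higher and 1 lower in cox4d.

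At 16 h coq2d had 2 lower members (all genes, 13.7%) and cox4d 1 higher and 1 lower (11.5%). RPN12 had 45.9 and 42.2 TPM in coq2d and 46.2 and 49.3 TPM in cox4d, against 98.9 and 108 TPM in wt. The differences of RPN12 were -1.21 ± 0.11 (adjusted p = 1.7e-12) and -1.097 (adjusted p = 3.1e-11). RPT1, an ATPase, had 60.7 and 63.0 TPM in coq2d, against 125 and 126 TPM in wt (-1.01, adjusted p = 1.3e-13), and the call was lost without 1 coq2d library (-0.99). RPN14 had 88.6 and 83.5 TPM in cox4d, against 39.6 and 42.1 TPM in wt (1.06, adjusted p = 4.5e-10). With median-ratio scaling RPN14 was the member past the threshold in each mutant. RPN1 changed least in coq2d (0.04) and PUP2 in cox4d (-0.01). RPN4 differed by -0.23 in coq2d (adjusted p = 0.053) and 0.03 in cox4d (adjusted p = 0.85).

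In ras2d and rts1d the members called against wild type were lower, and most of them were cap genes. At 12 h 3 members fell in ras2d (all genes, 16.9%) and 7 in rts1d (18.1%), and 9 of these 10 calls were cap genes. The share of the members was below that of all genes in ras2d and near it in rts1d. RPN13 had 128 and 115 TPM in ras2d and 114 and 107 TPM in rts1d, against 273 and 279 TPM in wt. RPN5, a lid subunit, had 61.4 and 61.7 TPM in ras2d and 53.4 and 61.6 TPM in rts1d, against 140 and 130 TPM in wt. RPN8, the lid subunit that pairs with the deubiquitinase Rpn11, had 82.1 and 75.7 TPM in ras2d and 71.4 and 78.0 TPM in rts1d, against 165 and 167 TPM in wt. For all 3 the mutants' libraries lay below those of wt, with log2 differences of -1.18, -1.12 and -1.06 in ras2d and -1.31, -1.22 and -1.14 in rts1d.

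The other calls in rts1d at 12 h were RPT6, PUP2, RPN10 and RPN6. RPT6 had 65.8 and 71.5 TPM in rts1d, against 151 and 155 TPM in wt (-1.14, adjusted p = 5.3e-16). Median-ratio scaling left 0 of the 7 calls in rts1d and 0 of the 3 in ras2d, where PRE3 was higher instead (1.03). The median difference of the cap was -0.56 in ras2d and -0.78 in rts1d (-0.35 and -0.42 with median-ratio scaling), and that of the core 0.23 and -0.05, the last of which turned to 0.31 with median-ratio scaling. Without 1 rts1d library, or without 1 wt library, RPN6 no longer passed (-0.93 in the first case, just under 2-fold in the second). PRE9, with -0.01, changed least in ras2d, and PRE4, with -0.002, in rts1d.

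At 16 h ras2d and rts1d were again each set against wt, and they were not compared with each other. In both the share of the members called was below that of all genes. In ras2d 4 cap members were lower than in wt (all genes, 15.1%), all with median-ratio scaling too. RPT6 had 74.4 and 81.9 TPM in ras2d, against 171 and 181 TPM in wt, and RPN10 had 76.8 and 95.4 TPM in ras2d, against 182 and 200.3 TPM in wt. RPN5 had 55.4 and 65.4 TPM in ras2d, against 139 and 129 TPM in wt, and RPN6 had 75.2 and 87.8 TPM in ras2d, against 179 and 174 TPM in wt. The differences were -1.16, -1.15, -1.14 and -1.11, and without 1 ras2d library those of RPN10 and RPN6 no longer passed (below 2-fold, with -0.99 for RPN10). In rts1d only RPN10 was called (all genes, 11.1%), with 77.6 and 87.0 TPM, against 182 and 200.3 TPM in wt (-1.21, adjusted p = 1.1e-11). RPN5, by contrast, had 136 and 142 TPM in rts1d at 16 h, against 139 and 129 TPM in wt. RPN4 differed by -0.40 in ras2d (adjusted p = 9.1e-04) and by 0.53 in rts1d (adjusted p = 3.4e-05).

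In tco89d the members called against wild type were higher core genes. At 12 h 3 core members were higher (all genes, 12%), also with median-ratio scaling. As a share of the members this was below that of all genes. PRE6 had 237 and 244 TPM in tco89d, against 98.03 and 103 TPM in wt (1.25, adjusted p = 1.7e-14). PUP1 had 140.4 and 133 TPM in tco89d, against 56.9 and 57.4 TPM in wt (1.25, adjusted p = 4.7e-14). PRE3, the beta subunit with the caspase-like site, had 331 and 314 TPM in tco89d, against 142 and 141 TPM in wt (1.18, adjusted p = 5.3e-17). At 16 h PRE3 alone passed (all genes, 10%), with 291 and 293 TPM in tco89d, against 142 and 144 TPM in wt (1.03), but it did not with median-ratio scaling. SCL1 changed least at both times (0.003 and -0.01). RPN4 differed by 0.08 at 12 h and 0.39 at 16 h (adjusted p = 0.53 and 0.0014).

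The ratio of the summed core to the summed cap genes is unchanged when a whole library is multiplied by 1 factor, as in median-ratio scaling. Quantile normalization can change the ratio and was not applied to it. The ratio is given as a description, with no test, since the grouping by deleted gene was made after the values were seen. In log phase the 14 core genes together had 1.43 to 1.69 times the TPM of the 18 cap genes in all 24 libraries. At 12 h the ratio was 1.02 to 1.11 in the 6 libraries of coq2d, cox4d and wt. In the 18 libraries of the 9 strains that lack RAS2, RTS1 or TCO89 it was 1.31 to 1.87, with no overlap. Within these it was 1.65 to 1.87 where RAS2 was deleted, 1.47 to 1.65 where RTS1 was and 1.31 to 1.65 where TCO89 was.

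At 16 h that division remained only in ras2d, tco89d and their double mutants with coq2d. The ratio was 1.05 to 1.14 in coq2d, cox4d and wt, and 0.877 to 1.04 in the 5 libraries that lack RTS1, all of them below. In ras2d it was 1.57 and 1.5 and in coq2d ras2d 1.37 and 1.38, while in cox4d ras2d it was 0.932 and 0.894. In tco89d it was 1.44 and 1.52, in coq2d tco89d 1.36 and 1.38, and in cox4d tco89d 1.07 and 1.16. Where RAS2 or TCO89 was deleted, the libraries with cox4d lay below those with coq2d. The low ratios at 16 h in strains lacking RTS1 came with cap levels of 1832 to 2085 TPM in sum, against 1097 to 1377 TPM in the same strains at 12 h.

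**Figure D5:**
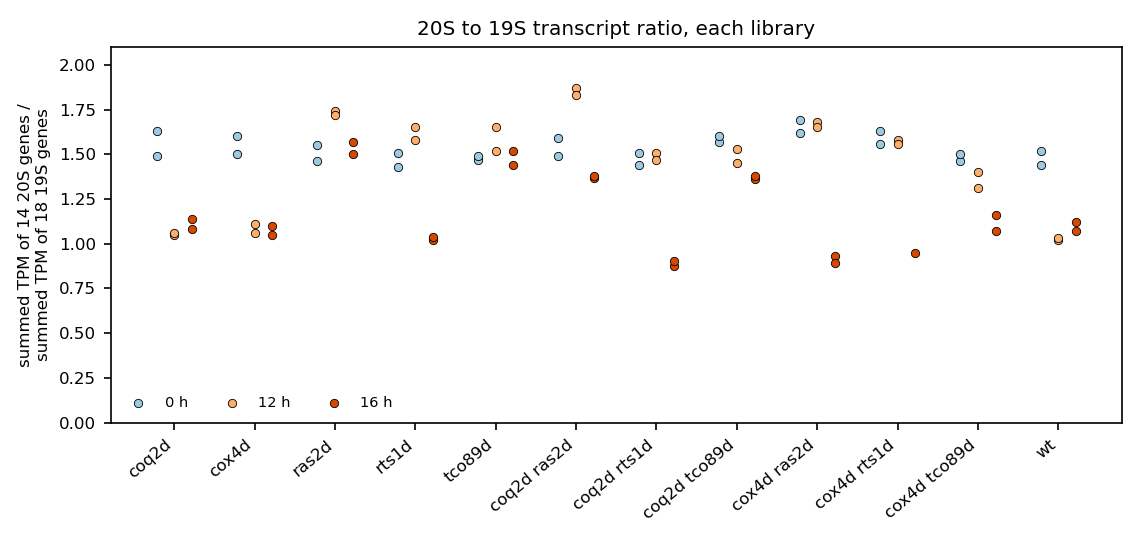
Summed TPM of the 14 core genes divided by that of the 18 cap genes (y axis) in each library, by strain, with 0, 12 and 16 h from left to right. At 12 h coq2d, cox4d and wt lie at 1.02 to 1.11 and all other strains at 1.31 or more.

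Gene by gene, few members changed late in RTS1 mutants. Between 12 and 16 h 3 members rose in rts1d (all genes, 15.6%), 2 in coq2d rts1d (18.2%) and 4 in cox4d rts1d (24.7%), every one a cap gene. These are shares of the members below those of all genes. The median change of the cap was 0.55 in rts1d, 0.41 in coq2d rts1d and 0.60 in cox4d rts1d, against 0.32, 0.06 and 0.22 for all genes, and with median-ratio scaling it was 0.11, 0.25 and 0.27. In rts1d RPN5 had 136 and 142 TPM at 16 h, against 53.4 and 61.6 TPM at 12 h (1.26, adjusted p = 1.7e-12). RPN13 and RPN8 were the others in rts1d (1.13 and 1.05). RPT6 rose by 1.23 in coq2d rts1d and by 1.16 in cox4d rts1d, where 16 h has a single library that is assumed to vary like the rest, and RPT2 by 1.03 and 1.40. With median-ratio scaling the counts were 0, 1 and 2, and RPT2 in coq2d rts1d and RPN8 in rts1d lost their calls without 1 library. Leaving out 1 library gave 1 to 4 rises in coq2d rts1d, with the 4 without a 16 h library. In cox4d ras2d RPN13 and RPN8 rose and PRE6 fell over the same interval (1.02, 1.05 and -1.42; all genes, 23.1%), and without 1 library RPN13 and RPN8 no longer passed (0.85 and 0.92).

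Double mutants were set against their respiratory parent. In log phase no member passed in the 6 comparisons, where 3.87% of all tests did; unadjusted, limma had 13 higher and 58 lower of 198 pairs. At 12 h there were 5 rises and 24 falls, where 16.8% of all tests passed, and at 16 h 7 rises and 4 falls (17.5%). Median-ratio scaling gave 0 rises and 15 falls at 12 h, and 1 rise and 7 falls at 16 h. The 3 comparisons with a parent share its libraries. RPN14 was lower at 12 h in the 4 double mutants without RAS2 or RTS1. It had 25.9 and 25.9 TPM in coq2d ras2d and 26.9 and 26.1 TPM in coq2d rts1d, against 62.2 and 64.8 TPM in coq2d. RPN14 had 27.4 and 24.7 TPM in cox4d ras2d and 27.9 and 21.4 TPM in cox4d rts1d, against 74.0 and 72.6 TPM in cox4d. At 16 h RPN14 had 18.4 and 20.9 TPM in cox4d ras2d, 19.6 TPM in cox4d rts1d and 25.5 and 35.4 TPM in cox4d tco89d, against 88.6 and 83.5 TPM in cox4d, with log2 differences of -2.08, -2.08 and -1.49.

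The longest list at 12 h was that of cox4d rts1d against cox4d, with 12 lower members (all genes, 17%), or 1 with median-ratio scaling. After RPN14, the largest were RPN10 (-1.35), PUP2 (-1.34), the gene of alpha subunit 5, and RPN5 (-1.27). RPT2, SCL1, RPT6 and RPT4 lost the call without 1 library, and without 1 of the cox4d rts1d libraries the count was 8. In cox4d ras2d 5 were lower (15.8%), in coq2d rts1d 4 (15%) and in coq2d ras2d 3, with PRE6 higher (21.8%). RPN13 was among them in each of these 4 comparisons, with differences of -1.25 in coq2d ras2d, -1.14 in coq2d rts1d, -1.19 in cox4d ras2d and -1.20 in cox4d rts1d. In coq2d rts1d the count was 2 without 1 of the coq2d rts1d libraries, where PUP2 and RPN10 lost the call (-0.94 and -0.89), and 9 without the other. No member passed in cox4d tco89d at 12 h (all genes, 6.94%), where limma at an unadjusted p under 0.05 had 8 higher and 10 lower.

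In coq2d tco89d 4 members were higher than in coq2d at 12 h (all genes, 24.2%) and 7 at 16 h (19.6%). The share of the members was below that of all genes at 12 h and near it at 16 h. RPN12 had 1.38 at 16 h, the largest log2 difference, then PRE1 (1.24), RPT1 (1.22) and PRE3 (1.22). PUP1 had 97.8 and 108 TPM in coq2d tco89d at 16 h, against 47.3 and 41.7 TPM in coq2d. With median-ratio scaling these 11 calls kept their sign but stayed below 2-fold (0.55 to 0.91), and other members passed as lower, RPN14 and RPN13 at 12 h and RPN14 at 16 h. At 12 h RPT1, PRE8 and PUP1 lost the call without 1 library (0.91, 0.94 and 0.94), and 1 call was left without a coq2d library or without a coq2d tco89d library. RPN4 differed by 0.65 at 16 h (adjusted p = 5.1e-07).

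Few members differed between the double mutants and their suppressor parents. Over 18 comparisons 5 calls were made, all at 16 h, with 1 rise and 4 falls, where 14.6% of all tests passed and median-ratio scaling gave 6 rises and 0 falls. At 0 and 12 h no member passed, where 0.847% and 3.53% of all tests did. Unadjusted and without a fold limit, limma had 23 higher and 25 lower of 198 pairs at 0 h. At 12 h the unadjusted counts were 28 higher and 34 lower of 198 pairs. In cox4d ras2d against ras2d PRE6 was lower and RPN8 higher (-1.102 and 1.08; all genes, 20.5%). PRE6 lost the call without 1 ras2d library (-0.93) and with median-ratio scaling (-0.90), and RPN8 without 1 ras2d library (0.92) or 1 cox4d ras2d library (0.95). In cox4d tco89d against tco89d PRE6, PRE1 and RPN7 were lower (-1.36, -1.08 and -1.02; all genes, 33.5%), none of them with median-ratio scaling, and PRE1 and RPN7 lost the call without 1 library (-0.85 and -0.96). PRE6 had 69.4 and 77.9 TPM in cox4d tco89d, against 181 and 201 TPM in tco89d.

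Whether the change over time itself differed from that of wild type was tested as an interaction in the same fit, for 11 mutants that share the wt libraries. For 12 against 0 h, 10 calls were higher than in wt, all of core genes, and 11 lower, all of cap genes, where 15.9% of all tests passed. Median-ratio scaling gave 16 and 3. PUP1 differed by 1.34 in tco89d, 1.43 in coq2d ras2d, 1.19 in coq2d tco89d and 1.16 in ras2d. RPN13 differed by -1.43 in rts1d, -1.26 in ras2d, -1.14 in coq2d ras2d, -1.16 in cox4d ras2d and -1.12 in cox4d rts1d. For 16 against 0 h there were 5 calls, with RPN14 higher in cox4d (1.104), RPN12 lower in coq2d (-1.03), PRE6 lower in cox4d ras2d (-1.37), and RPN13 and RPN5 lower in ras2d (-1.02 and -1.08). Of these, RPN12 in coq2d and RPN13 and RPN5 in ras2d lost the call without some library (-0.86, -0.92 and -0.96 at the least). Here 15.4% of all tests passed, and median-ratio scaling gave 6 rises and 4 falls.

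Around the proteasome some lists held both rises and falls in wild type, and others only rises. Of 15 genes for ubiquitin and its activation and conjugation, 6 rose and 4 fell in wt at 16 h against 0 h, of 18 assembly chaperones and associated factors 3 rose and 1 fell, of 16 ubiquitin ligases 4 rose and 0 fell, of 11 genes for CDC48 and shuttle factors 1 rose and 0 fell, and of 17 deubiquitinases 1 rose and 1 fell. Of all genes tested 46.5% passed there in either direction, a share that the ubiquitin list exceeded and the other lists did not reach. Median changes were 0.13, 0.02, -0.05, 0.37 and -0.16, against -0.24 for all genes. These counts were the same with median-ratio scaling for ubiquitin genes and deubiquitinases, and were 5 and 1 for chaperones, 5 and 0 for ligases and 2 and 0 for the CDC48 list. The largest rise among ubiquitin genes was UBC5, a stress-induced conjugating enzyme, with 66.8 and 67.5 TPM at 0 h, 652 and 665 TPM at 12 h and 671 and 581 TPM at 16 h (3.20 at 16 h).

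The ubiquitin genes divided by kind. UBI4, which encodes polyubiquitin and carries the exact PACE motif, had 228 and 225 TPM at 0 h, 599 and 609 TPM at 12 h and 673 and 678 TPM at 16 h in wt (1.57, adjusted p = 5.9e-24). It rose in 9 of 12 strains at either time. RPS31, RPL40A and RPL40B, which encode ubiquitin fused to ribosomal proteins, fell by 3.02, 1.86 and 2.69 at 16 h, and RPL40A and RPL40B encode the same protein from near-identical genes, so their reads may be shared. UBA1, also with the exact motif, had 73.2 and 67.8 TPM at 0 h, 21.0 and 23.5 TPM at 12 h and 23.6 and 22.7 TPM at 16 h (-1.56, adjusted p = 8e-16).

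Among the associated factors, SPG5 stood out. It encodes a proteasome regulator needed in stationary phase, and it had 44.6 and 39.7 TPM at 0 h, 601 and 596 TPM at 12 h and 791 and 688 TPM at 16 h in wt (4.10, adjusted p = 1.1e-28). SPG5 rose in 11 of 12 strains at 12 h and in all 12 at 16 h, by 2.36 to 5.49. The base chaperone gene TMA17 had 137 and 149 TPM at 0 h, 382 and 405 TPM at 12 h and 499 and 526 TPM at 16 h in wt. POC4, a core chaperone gene, had 70.1 and 70.1 TPM at 0 h, 16.7 and 20.8 TPM at 12 h and 15.2 and 18.8 TPM at 16 h. UMP1, the maturation factor of the core, and BLM10, an alternative cap of the core, passed in no strain at either time, nor did SEM1. UBR2, the ligase that targets Rpn4, did not pass either, but its level was low. Over all strains UBR2 had 1.235 to 2.357 TPM at 0 h and 0.9887 to 4.103 TPM at 16 h. At such levels log2(TPM + 1) understates changes, so a 2-fold change in TPM could fail to pass.

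Of 4 genes for activators of RPN4 transcription 1 rose in wt at 16 h against 0 h and 0 fell, with a median change of 0.305 (2 rose with median-ratio scaling; all genes, 46.5% passed in either direction). The 1 was HSF1, the heat shock factor, with 37.5 and 34.2 TPM at 0 h, 71.5 and 72.2 TPM at 12 h and 83.6 and 76.5 TPM at 16 h (1.14, adjusted p = 1.4e-15).

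Several of these genes differed between mutants and wt at 16 h. TMA17 had 183 and 187 TPM in coq2d, 198 and 201 TPM in cox4d and 985 and 1075 TPM in tco89d. In wt TMA17 had 499 and 526 TPM, and the differences were -1.47, -1.36 and 1.00, the last at the 2-fold limit. SPG5 had 308 and 278 TPM in ras2d and 321 and 275 TPM in tco89d, against 791 and 688 TPM in wt (-1.33 and -1.31). HSF1 had 37.3 and 36.3 TPM in ras2d, against 83.6 and 76.5 TPM in wt (-1.1, adjusted p = 2.3e-14). In coq2d 4 of 17 deubiquitinase genes were lower (all genes, 13.7%), led by UBP10 (-1.26) and UBP16 (-1.20), and 0 with median-ratio scaling. In ras2d RPS31 was higher (1.64) and CDC34 and UBC8, which encode conjugating enzymes, lower (-1.42 and -1.48).

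Genes outside the complex with a pattern most like the mean of the members were found by Pearson correlation over the 36 group means. These were means of log2(TPM + 1), centred on the median of all genes tested in each group. Genes with a low mean TPM were left out of the ranking. Every r here uses the centred means and is a description, because groups share strains and times. The most alike were AIM9 (r = 0.907), SBP1 (0.855), UBP6 (0.851), CKI1 (0.837), DCP2 (0.82), NGG1 (0.816), TIP1 (0.79) and RVS167 (0.785). The promoter of AIM9, the most alike, has no match to the element, even with 1 mismatch. Those of SBP1 and UBP6 each hold it with 1 mismatch, and the others of these genes are not described here. UBP6 encodes the deubiquitinase bound to the 19S base. UBP6 had 72.1 and 66.0 TPM at 0 h, 59.2 and 56.1 TPM at 12 h and 53.8 and 48.7 TPM at 16 h in wt. For RPN4 r was -0.272. Among pairs of members the median r was 0.717 within the core (91 pairs), 0.435 within the cap (153 pairs) and 0.177 between core and cap (252 pairs).

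As a check of the labels, COQ2 was at 0.1 to 2.95 TPM in the 24 libraries that lack it and at 5.55 to 60.2 TPM in the others. COX4 was at 0.115 to 72.3 TPM in the 23 that lack it, against 283 to 3463 TPM, and RAS2, RTS1 and TCO89 were at most 2.32, 1.98 and 1.36 TPM where deleted and at least 67.1, 18.9 and 6.29 TPM elsewhere. The 72.3 TPM of COX4 lies far above what the other deleted genes reached where deleted, and its source was not tested. Log-phase cells had 2910 to 5506 TPM of MF(ALPHA)1, an alpha pheromone gene, and 4.64 to 9.54 TPM of STE2, a receptor gene of a cells. Libraries of a group correlated at 0.985 to 0.998 across genes, and each had 5622 to 5699 genes at 1 TPM or more.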

How the data were processed

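RNA-seq libraries of 12 strains at 3 times (71 libraries) were analysed from the authors' deposited table of TPM values. Per the submitters' processing notes, bcl2fastq 2.20.0.422, Salmon 0.9.1 and the sacCer3 build were used. TPM keeps no read depth, so depth per library is unknown and no counting interval is given; columns summed to 1000003 to 1000010. The lowest value in the table is 0.1 TPM, held by 0.969% of the values. A second deposited table held identical values and was not used. Groups come from the labels, where paired libraries are technical replicates.

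Genes that reached 1 TPM in 2 or more libraries (5766 of 5803, all 33 members) were tested with limma 3.58.1 in R 4.3.3 on log2(TPM + 1), with 1 mean per group, 35 residual degrees of freedom, a trended prior and Benjamini-Hochberg adjustment within each of 109 comparisons. Fold changes on this scale understate changes of low genes. The code was tested on simulated data. Named genes are all members, with up to 4 members past the threshold per direction and the least changed member per comparison, up to 4 genes per direction from each other list, and UBI4, UMP1, BLM10, SPG5, SEM1 and UBR2; other members were named after their values were seen. Members and lists were chosen with earlier results of these data known. Promoters were read from the R64 genome by coordinates, and blastn 2.17.0 found 0 of 34 genes, the members and RPN4, with a near-identical copy. Alternatives covered scaling, pseudocount, filter, fold threshold, libraries in the fit and leaving out each library.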

Additional observations from a re-analysis of the deposited data

Results flagged for a closer look

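The results below were singled out because the change over time of a member differed between a mutant and wt, by the interaction term of the limma fit on log2(TPM + 1), at the threshold used throughout. A positive value is a higher change in the mutant. The first set is the difference between mutant and wt in the change at 12 against 0 h. In ras2d it was 1.16 for PUP1, -1.26 for RPN13, -1.06 for RPN5 and -1.03 for RPN8. In rts1d it was -1.43 for RPN13, -1.05 for RPN5 and -1.12 for RPN8. In tco89d it was 1.47 for PRE6, 1.1 for PRE10, 1.15 for PRE3 and 1.34 for PUP1. In coq2d ras2d it was 1.01 for PRE8, 1.34 for PRE6, 1.13 for PRE3, 1.43 for PUP1, -1.14 for RPN13 and -1.05 for RPN5. In coq2d tco89d it was 1.19 for PUP1. In cox4d ras2d it was -1.16 for RPN13 and -1.07 for RPN5. In cox4d rts1d it was -1.12 for RPN13. The second set is the same difference at 16 against 0 h. In coq2d it was -1.03 for RPN12. In cox4d it was 1.104 for RPN14. In ras2d it was -1.02 for RPN13 and -1.08 for RPN5. In cox4d ras2d it was -1.37 for PRE6. Their adjusted p-values ran up to 1e-06. Of these 26 differences 10 no longer passed with median-ratio scaling, and 9 no longer passed without some library. All share the wt libraries.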

How the results depend on the processing

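No paired analysis was possible because the columns carry no replicate numbers. With another scaling, 124 of 224 called pairs of gene and comparison no longer passed (median-ratio scaling). The 224 include the calls of RPN4, none of which was lost, so all 124 are calls of members. Counts of members past the threshold became 46 (main 106) over time, 11 (23) for single mutants against wt and 23 (40) for double mutants against the respiratory parent. Among single comparisons they became 1 (3) for wt at 16 against 0 h, 1 (2) for coq2d and 1 (2) for cox4d against wt at 16 h, 1 (3) for ras2d and 0 (7) for rts1d at 12 h, and 0 (1) for tco89d at 16 h. Quantile normalization gave 66, 11 and 26 for those 3 sets, 1 (5) for double mutants against the suppressor, 1 each for coq2d, cox4d and ras2d (4) at 16 h and 1 for rts1d at 12 h. A pseudocount of 5 gave 1 each for coq2d and cox4d at 16 h. The cause was not tested.

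By construction, lower limits gave more calls. At 1.5-fold there were 381 over time, 77 for single mutants, 122 and 38 for double mutants against the respiratory and the suppressor parent, 149 (26) for the change over time against wt and 485 (279) for the other lists. By comparison there were 17 and 16 for wt at 12 and 16 h, 9 for coq2d at 16 h, 1 (0) and 6 for cox4d, 14 and 12 for ras2d, 16 and 2 for rts1d, and 11 and 6 for tco89d at 12 and 16 h. By adjusted p alone the sets had 844, 238, 307, 160, 338 and 715, and the comparisons 26 and 25 (wt), 8 and 27 (coq2d), 8 and 24 (cox4d), 23 and 25 (ras2d), 22 and 15 (rts1d), and 22 and 21 (tco89d).

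Leaving out 1 library gave 1 to 2 members for coq2d and 2 to 7 for ras2d against wt at 16 h, 2 to 9 for coq2d rts1d against coq2d at 12 h (main 4), and 3 to 6 for double mutants against the suppressor, where the 3 came without a tco89d library at 16 h. RPN4 rose in 12 strains under all alternatives run. The other filters, a pseudocount of 0.1 and fits on the compared libraries alone moved no count by over 1.5 times. The motif search with 1 mismatch, 32 members, was chosen after seeing the data. TPM limits what low genes such as RPN14 can show, since their read numbers are unknown.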
